A study of Mus musculus with 4 samples.

Results

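The genes that copy the genome during S phase were compared between CD4 single-positive thymocytes of 2 genotypes. The group was defined by name, as 55 genes of origin licensing, the replisome, nucleotide synthesis and the G1/S transition, and took in every probe set that the platform annotation pairs with exactly 1 of these symbols. That gave 119 of the 45101 probe sets on the array and 54 of the 18193 genes with a single-symbol probe set. Chaf1a, a subunit of chromatin assembly factor 1, was not analysed here.

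All mice were on the B6 background and all carried floxed alleles of Cul3, which encodes the scaffold of a family of ubiquitin ligases. The LM group was CD4 Cre-negative (CD4Cre-Cul3fl/fl) and the KO group CD4 Cre-positive (CD4 Cre+Cul3fl/fl), with 2 arrays each. CD4-Cre is active from the double-positive stage of thymocyte development, so deletion would have begun before the sorted stage, and no group carried Cre without floxed Cul3. Sorted cells lacked CD25, CD1d-PBS57 tetramer binding and the gamma delta T cell receptor, and their RNA was amplified before hybridisation. The sources used here give neither age, sex nor the number of animals behind a sample. The labels do not call the 2 samples of a group separate animals, and p-values then reflect sample-to-sample spread only, possibly technical.

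Cul3 itself was not called between the groups. Its 5 probe sets had KO minus LM differences from -0.15 to 0.31 on the log2 scale, with -0.01 ± 0.09 (SE) for the brightest (limma adjusted p = 0.994). The deleted part of the gene and the place of the probes were not stated, and probes outside the deleted part check nothing. Genotypes are taken from the labels alone, so KO array means array labelled KO throughout.

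A replication origin is licensed when the origin recognition complex, Cdc6 and Cdt1 load the Mcm2 to Mcm7 helicase ring onto DNA. Kinases, Cdc45 and the GINS complex then turn the ring into a moving helicase, behind which polymerases, the sliding clamp Pcna and the enzymes of deoxynucleotide supply complete the copy. Many of these genes are transcribed at the G1/S boundary by E2F factors. Mature thymocytes mostly rest, whereas cycling is common at earlier stages of thymocyte development.

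E2F factors bind words such as TTTCCCGC and TTTGGCGC, and the licensing genes are shown here as examples because they include both a gene among the lowest on the KO arrays, Cdc6, and a gene that was not lower, Orc1. The sequences below are from RefSeq (GRCm38.p6), each a run of 70 bases that ends before the transcription start, read 5′ to 3′ on the gene's strand, with matches to an E2F word or its reverse complement in capitals. They lie at chr11:98907982-98908051 (plus strand) for Cdc6, chr8:75109329-75109398 (plus) for Mcm5, chr1:128359714-128359783 (minus) for Mcm6, chr5:138172010-138172079 (minus) for Mcm7 and chr4:108579384-108579453 (plus) for Orc1.
Cdc6: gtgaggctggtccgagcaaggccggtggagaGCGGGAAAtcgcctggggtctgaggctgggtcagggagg
Mcm5: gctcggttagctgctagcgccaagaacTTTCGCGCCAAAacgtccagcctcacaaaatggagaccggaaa
Mcm6: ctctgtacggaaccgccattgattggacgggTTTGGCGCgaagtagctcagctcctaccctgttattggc
Mcm7: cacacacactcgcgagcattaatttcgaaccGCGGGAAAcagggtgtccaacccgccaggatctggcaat
Orc1: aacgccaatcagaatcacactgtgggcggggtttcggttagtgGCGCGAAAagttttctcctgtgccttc
In Mcm5 the capitals cover 2 overlapping words, one on each strand.

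As a group the replication genes had lower signals on the KO arrays, by a modest amount. Signals are given as log2(signal + 16) after quantile normalization, with the brightest probe set standing for a gene, and a difference is the KO mean minus the LM mean. All 54 genes lay above background, the level of olfactory and vomeronasal receptor probes, on every array. The difference was below 0 for 46 of 54 genes (85.2%), against 49.7% of the 11255 genes tested, and its median was -0.27, against 0.00. Fewer cells in S phase and less RNA per cell cannot be told apart in such bulk samples.

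No single gene of the group passed the threshold. In limma, with p-values adjusted over all 11255 genes by Benjamini-Hochberg and a threshold of 0.05, 0 of the 54 were called lower and 0 higher, where 0.142% and 0.133% of all genes were called (0.275% in either direction). At an unadjusted p under 0.05 there were 18 lower and 1 higher, with 4.17% and 4.23% of all genes as background. The smallest adjusted p, 0.0521, belonged to Rrm2.

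Both KO arrays lay below both LM arrays for 28 of the 54 genes (51.9%), against 18.3% of all genes. The reverse order held for 2, Orc2 and Cdc45, against 19.1% of all genes. In 12 genes the difference was -0.5 or lower (22.2%, against 5.80% of all genes). In Pole, Cdc6, Mcm10 and Rad51ap1, 4 of the 54, it was -1 or lower, against 0.924% of all genes. Of the 1125 genes with the lowest differences among the 11255 tested, 21 were replication genes, which is 38.9% of the 54.

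The median shift over the group was smaller between replicates than between genotypes. Such a median lets gene differences of opposite sign cancel, and does not measure how far apart the arrays lie. Over the 54 genes, the median of replicate 2 minus replicate 1 was -0.05 in LM and -0.05 in KO, while the 4 pairings of a KO with an LM array gave medians from -0.32 to -0.25. Summed over the group, the normalized signal came to 68524 and 67610 in the LM group, against 56226 and 56608 in the KO group.

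Single genes depended on single arrays more than the group did. Leaving out 1 array in turn moved the difference by over 1.5 times, or to the other sign, in 36 of the 54 genes. It did neither in Pole, Cdc6, Mcm10, Rad51ap1, Rrm2, E2f2, Pole2, Slbp, Lig1, Tipin, Rfc4, Mcm5, Pcna, Rfc1, Pola2, Gmnn, E2f1 and Cdc45. For 11 of the 54 genes the brightest probe set carries a suffix (x or s) by which the array's maker marks probes that may match other transcripts, so those signals are uncertain.

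**Figure D1:**
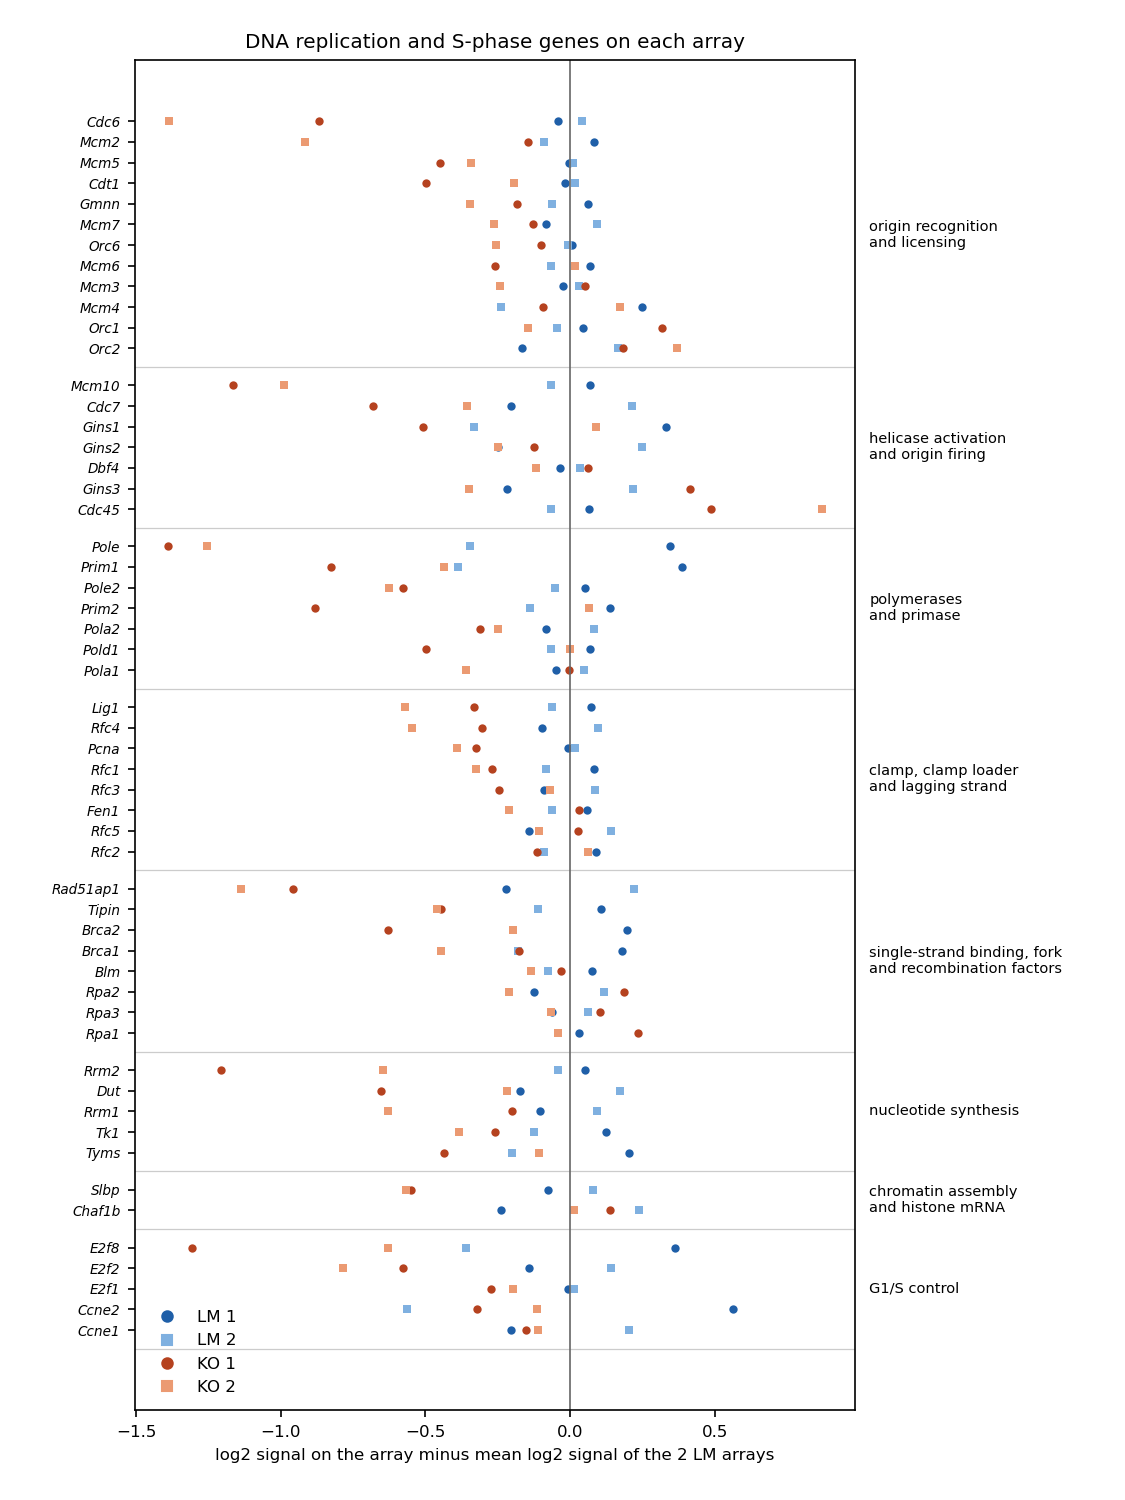
Log2 signal of each of the 54 genes on each array, minus the mean of the 2 LM arrays, grouped by role; circles are replicate 1 and squares replicate 2, blue LM and orange KO. Both orange points lie left of both blue points for 28 genes and right of them for Orc2 and Cdc45.

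Nucleotide synthesis had the gene closest to the threshold. Rrm2, the small subunit of ribonucleotide reductase, which makes deoxynucleotides, read 11.90 and 11.81 in LM 1 and LM 2, against 10.64 and 11.20 in KO 1 and KO 2. The groups did not overlap, and KO 1 was the lower of the KO pair. The difference was -0.93 ± 0.17 (SE, n = 2 per group), or 52.5% of the LM signal (95% interval of the log2 difference -1.30 to -0.56, limma adjusted p = 0.0521).

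All 3 probe sets of Rrm2 were lower on both KO arrays, with differences of -0.93, -1.29 and -0.43. When every probe set was tested by itself, the first and second passed (limma adjusted p = 0.0429 and 0.0233), the only ones of the group to do so, where 0.11% of 21795 probe sets were called lower and 0.119% higher. The brightest probe set carries such a suffix and the second does not. KO 1 was the lower KO array in the brightest probe set alone. On KO 1 and KO 2 the second read 9.45 and 8.94, and the third 9.30 and 8.58.

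Whether Rrm2 passed depended on the setting and, with its brightest probe set, on KO 1. It passed in 10 of the 14 other analyses by gene. Without KO 1 its difference was -0.65 (limma adjusted p = 0.0901), and without KO 2 it was -1.21 (adjusted p = 0.00605). The background of genes called lower was 0.187% without normalization, 0.382% with median centring, 0.16% with a pseudocount of 64 and 0.214% with the filter on all 4 arrays. It was 0.169% with robust moderation, 0.116% with probe sets averaged, 0.195% with the replicate number as a term, 0.284% and 0.364% without LM 1 or LM 2, and 0.213% without KO 2.

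The rest of nucleotide synthesis differed less. Rrm1, the large subunit of the same enzyme, read 10.72 and 10.91 on LM and 10.62 and 10.19 on KO (-0.41 ± 0.18, limma adjusted p = 0.572). Dut, which removes dUTP, read 10.71 and 11.05 against 10.23 and 10.66 (-0.44 ± 0.19, adjusted p = 0.559). In both genes the KO arrays lay below the LM arrays, but Rrm1 gave -0.20 without KO 2 and Dut -0.22 without KO 1. Tk1, thymidine kinase, did not overlap either (-0.32 ± 0.28), while Tyms, thymidylate synthase, did (-0.27 ± 0.30). All 5 genes of this role were below 0, with a median of -0.41 and 4 without overlap. As background for this and the other roles, 49.7% of all genes were below 0 and 18.3% lay below LM on both KO arrays.

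Among the polymerases and primase all 7 genes were below 0 (median -0.41) and 4 did not overlap. Pole, the catalytic subunit of the leading-strand polymerase, had the lowest difference of the 54 genes. Its signal was 8.59 and 7.90 on LM and 6.85 and 6.99 on KO, with LM 1 well above LM 2. Pole has 1 probe set, and its KO 1 value was only just above the background of that array, so the size of its difference is uncertain. The difference was -1.32 ± 0.34 (SE, n = 2 per group, limma adjusted p = 0.209), and it was -0.98 without LM 1.

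Pole2, the second subunit of that polymerase, read 9.34 and 9.24 on LM against 8.71 and 8.67 on KO (-0.60 ± 0.21, limma adjusted p = 0.422). Here the replicates were close in both groups. Prim1, the catalytic primase subunit, read 10.12 and 9.34 against 8.90 and 9.29. Its lower LM array was only just above the higher KO array, and the difference of -0.63 ± 0.26 became -0.24 without LM 1. Prim2, the other primase subunit, overlapped because KO 2 (9.01) lay above LM 2 (8.81), and gave -0.41 ± 0.30. Pola1 and Pola2, of the polymerase that extends primers, and Pold1, of the lagging-strand polymerase, gave -0.18, -0.28 and -0.25, and of these only Pola2 did not overlap.

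Origin recognition and licensing was split. Of its 12 genes, 9 were below 0 (median -0.19), and 7 lay below LM on both KO arrays. Cdc6, which loads the helicase and is itself a textbook E2F target, read 8.63 and 8.72 on LM and 7.81 and 7.29 on KO. The LM arrays agree closely and both KO arrays are lower. The difference was -1.13 ± 0.28 (SE, n = 2 per group, limma adjusted p = 0.199), 45.8% of the LM signal.

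The Mcm ring subunits act together, at one copy each per ring, and the brightest probe set of each carries the suffix for possible cross-matches. Mcm5 read 11.60 and 11.62 on LM and 11.16 and 11.27 on KO (-0.40 ± 0.13, limma adjusted p = 0.352), with close replicates in both groups. Mcm2 gave -0.53 ± 0.24 (adjusted p = 0.586), of which KO 2 at 9.23 made most: without it the difference was -0.14. Mcm7 gave -0.20, Mcm6 -0.12, Mcm3 -0.10 and Mcm4 0.04, and of these only Mcm7 did not overlap. Probe sets without x or s gave -0.29 for Mcm2, -0.83 to -0.23 for Mcm3, -0.48 for Mcm4, -0.56 for Mcm5 and -0.22 for Mcm6. These were all below 0, but the probe set of Mcm7 without x or s, above background on every array, gave 0.10. The order of the subunits therefore depends on the probe set, and no test compared one subunit with another.

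Cdt1, which brings the ring to the origin, and Gmnn (geminin), which inhibits Cdt1, lay below LM on both KO arrays (-0.34 ± 0.17 and -0.27 ± 0.19). The origin recognition subunits differed in sign. Orc6 gave -0.18 and Orc1 0.09, whereas Orc2 read 9.70 and 10.03 on LM and 10.05 and 10.24 on KO (0.28 ± 0.19, limma adjusted p = 0.788). The 3 probe sets of Orc2 gave 0.28, -0.20 and 0.43, so its direction depends on the probe set.

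Helicase activation and origin firing held both a gene with a difference below -1 and the gene with the highest difference of the 54. Mcm10, which helps start the helicase, read 8.57 and 8.43 on LM and 7.34 and 7.51 on KO, well apart. Its difference was -1.08 ± 0.28 (SE, n = 2 per group, limma adjusted p = 0.202), and its 3 probe sets were all below 0 (-1.08 to -0.37). Cdc45, a part of the moving helicase, read 8.18 and 8.05 on LM and 8.60 and 8.99 on KO, the opposite order. It gave 0.68 ± 0.25 (adjusted p = 0.442), but its second probe set gave -0.63, and the mean of both gave 0.03, so these data give no settled direction for Cdc45.

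Cdc7, the kinase that fires origins, read 9.94 and 10.35 on LM and 9.46 and 9.78 on KO (-0.52 ± 0.21, limma adjusted p = 0.498). Its KO values were lower without overlap, although its second probe set gave 0.08, and without LM 2 the difference was -0.31. Dbf4, the activating partner of Cdc7, gave -0.03. The GINS subunits Gins1, Gins2 and Gins3 gave -0.21, -0.19 and 0.03, and all overlapped.

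The clamp, its loader and the lagging-strand enzymes were all below 0 (8 of 8, median -0.23), by small amounts. Pcna, the sliding clamp, had close replicates in both groups: 12.66 and 12.69 on LM, 12.35 and 12.28 on KO. That is 77.8% of the LM signal, a difference of -0.36 ± 0.09 (SE, n = 2 per group, limma adjusted p = 0.202). Lig1, which seals the fragments of the lagging strand, read 10.41 and 10.28 against 10.01 and 9.77 (-0.46 ± 0.18, adjusted p = 0.482). Both lay below LM on both KO arrays.

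Of the clamp loader subunits, Rfc4 (-0.43 ± 0.22) and Rfc1 (-0.30 ± 0.16) did not overlap. Rfc3, Rfc5 and Rfc2 gave -0.16, -0.04 and -0.03 and overlapped. Fen1, the flap nuclease, gave -0.09, with KO 1 (11.57) between the LM arrays.

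Among single-strand binding, fork and recombination factors, 6 of 8 genes were below 0 (median -0.20) and 3 did not overlap. Rpa1, Rpa2 and Rpa3, which coat single-stranded DNA, gave 0.10, -0.01 and 0.02, and the KO and LM arrays overlapped in each. Rad51ap1, which acts in homologous recombination, read 8.11 and 8.55 on LM and 7.37 and 7.19 on KO (-1.05 ± 0.30, limma adjusted p = 0.295). Its groups were far apart, but only 2 of its 4 probe sets were above background and the other of these gave 0.24.

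Tipin, which protects the fork, read 10.57 and 10.35 on LM and 10.01 and 10.00 on KO (-0.45 ± 0.17, limma adjusted p = 0.458), without overlap. Brca2 and Brca1, of homologous recombination, gave -0.41 ± 0.32 and -0.31 ± 0.26. For Brca2, LM 2 and KO 2 were both at 7.71 and the groups only just failed to overlap. Blm, a helicase of the same pathway, gave -0.08.

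Slbp, which binds the stem-loop of histone messages and is needed for histone supply in S phase, read 11.37 and 11.53 on LM and 10.90 and 10.88 on KO. The KO arrays nearly coincide and both lie below LM. The difference was -0.56 ± 0.14 (SE, n = 2 per group, limma adjusted p = 0.179), and both of its probe sets above background were lower. Chaf1b, which deposits histones on new DNA, gave 0.08 ± 0.23 with overlapping groups.

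In G1/S control all 5 genes were below 0 (median -0.24). E2f2, an activating E2F, read 9.72 and 10.00 on LM and 9.28 and 9.08 on KO (-0.68 ± 0.20, limma adjusted p = 0.308). E2f8, a repressing E2F, read 9.08 and 8.36 against 7.42 and 8.09 (-0.97 ± 0.32, adjusted p = 0.393). Neither overlapped, but the replicates of E2f8 were far apart in both groups, and its difference was -0.61 without LM 1 and -0.63 without KO 1. E2f1 gave -0.24 ± 0.17 without overlap, and its 3 probe sets ran from -0.80 to -0.24. The E cyclins Ccne1 (-0.13 ± 0.21) and Ccne2 (-0.22 ± 0.38) overlapped.

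**Figure D2:**
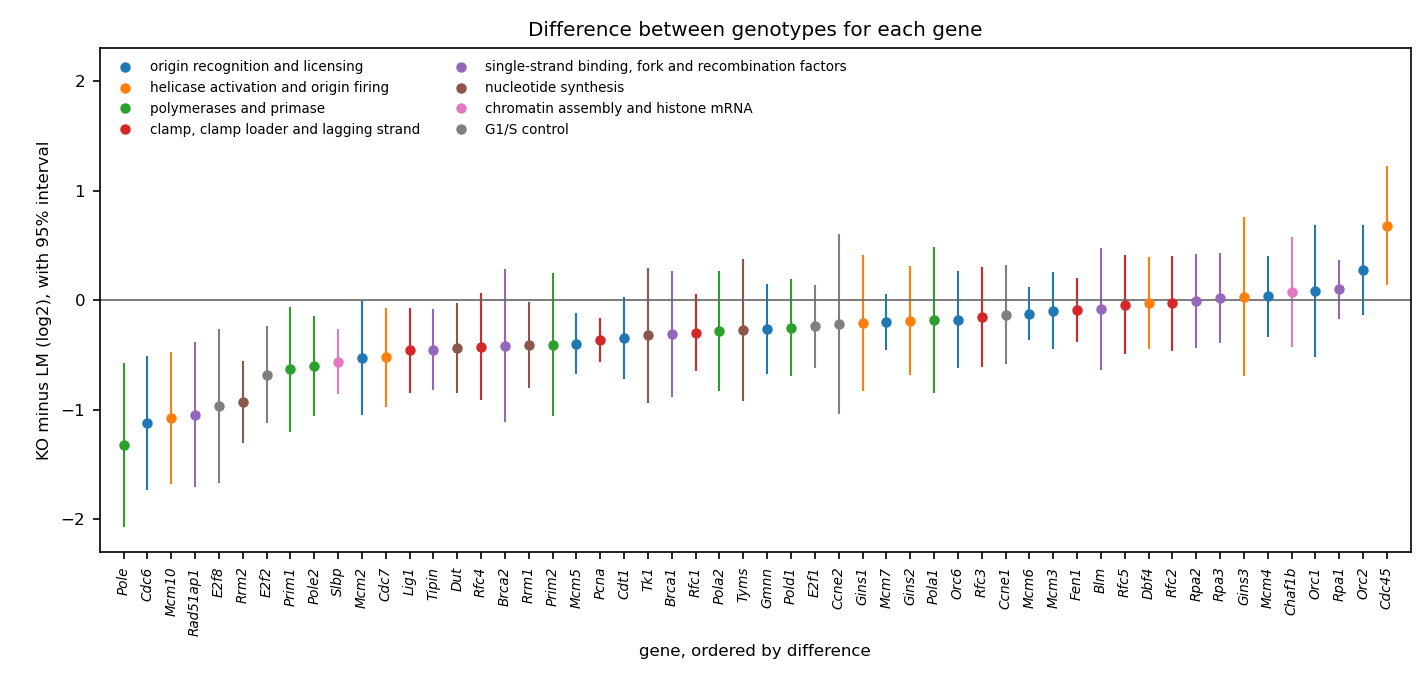
Difference between the KO and LM means for each of the 54 genes on the log2 scale, ordered from the lowest; bars are limma's 95% intervals, not adjusted for the number of genes, and colours are roles. Differences run from -1.32 for Pole to 0.68 for Cdc45, and roles are mixed along the order.

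Taking all probe sets rather than one per gene gave a like picture. Of the 119, 105 were above background on at least 2 arrays. Of these, 89 were below 0 (84.8%), against 50.8% of all probe sets tested. Their median was -0.28, against -0.004 over all probe sets tested. Both KO arrays lay below both LM arrays for 52, against 18.5% of all probe sets. Of 37 genes with more than 1 such probe set, 26 were lower in all of them and Rpa1 higher in both of its own. Probe sets differed in sign for Cdc45, Cdc7, Dbf4, Gins3, Mcm4, Mcm7, Orc2, Rad51ap1, Rfc2 and Rpa2.

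Other genes of DNA replication were also more often below 0 than above. Of 55 tested genes in a wider list that shares none of the 54, 36 were below 0 (65.5%, against 49.7% of all genes). Their median was -0.10, and limma called 0 in either direction, against 0.275% of all genes. At an unadjusted p under 0.05 limma gave 10 lower (18.2%) and 1 higher (1.82%), against 4.17% and 4.23% of all genes. The median of the list was -0.15 without LM 2, with median centring or with probe sets averaged, and -0.16 with every probe set. Timeless, the partner of Tipin, read 10.78 and 10.83 on LM and 10.11 and 10.17 on KO (-0.67 ± 0.16, limma adjusted p = 0.162). Clspn, a checkpoint mediator at the fork, gave -0.996 ± 0.30, Rrm2b, a ribonucleotide reductase subunit outside S phase, -0.94 ± 0.24, and Wdhd1, which links helicase and polymerase, -0.76 ± 0.23. All of these lay below LM on both KO arrays, and Clspn gave -0.63 without KO 1. E2f3, an activating E2F, lay above on both (0.58 ± 0.19, adjusted p = 0.394).

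Genes of mitosis had larger differences than those of replication. Of 47 tested, 44 were below 0 (93.6%, against 49.7% of all genes), and the median was -0.81. Both KO arrays lay below LM for 39 (83.0%, against 18.3% of all genes). In limma 8 fell at the threshold, where 0.142% of all genes did. These were Mki67 (-0.86), Top2a (-1.44), Kif11 (-1.25), Ube2c (-1.23), Cenpe (-1.41), Cdca3 (-1.48), Ccna2 (-1.11) and Cenpf (-1.21), with adjusted p from 0.00285 to 0.0303. Without the filter on dim genes or without the intensity trend 0 of them passed, and with median centring 16 did. The summed signal of the list was 59722 and 59663 on LM and 39911 and 43083 on KO. The difference between the lists was not tested.

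**Figure D3:**
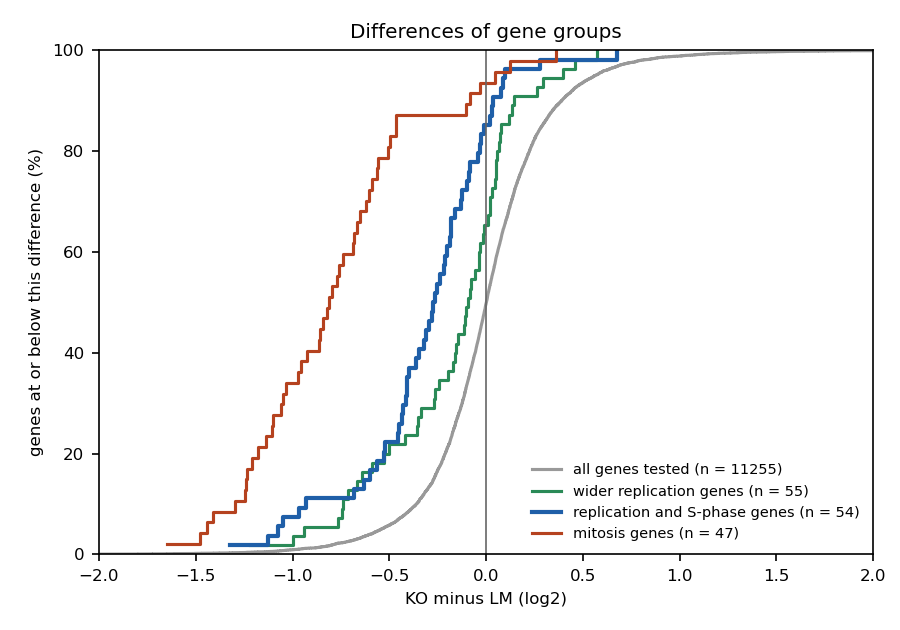
Share of genes at or below each difference between the KO and LM means (log2), for the 54 replication and S-phase genes, 55 wider replication genes, 47 mitosis genes and all 11255 genes tested. The curve of the 54 genes crosses 0 at 85.2% and that of all genes at 49.7%, and the mitosis curve lies farthest left.

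RefSeq promoter windows, 250 bases before to 50 after a start, were given for 45 of the 54 genes, and a gene counts if any of its windows holds a motif on either strand. Matches may overlap. An E2F word (TTTCCCGC, TTTCGCGC, TTTGCCGC or TTTGGCGC) lay in the windows of 15 of the 45 (33.3%), against 4.82% of 9153 genes tested and 2.26% of all 32851 windows. Of the genes lower on both KO arrays 8 of 25 held one (32%), and of the others 7 of 20 (35%). The CHR element TTTGAA, known from promoters of late cell cycle genes, lay in 8 of the 45 (17.8%), in 30 of 39 mitosis genes (76.9%) and in 14.3% of genes tested. The CCAAT box lay in 27 of the 45 (60.0%) and in 42.8% of genes tested. Across all windows the CHR element lay in 17.9% and the CCAAT box in 37.4%.

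**Figure D4:**
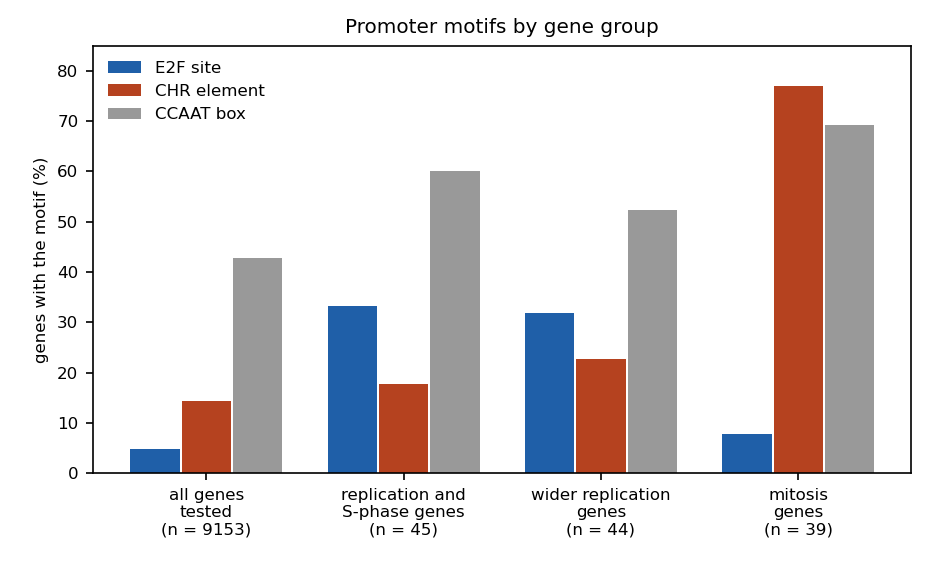
Share of genes whose RefSeq promoter window holds each motif, for all genes tested and for the 3 gene lists; n is the number of genes with a window. The E2F words reach 33.3% in replication and S-phase genes and 7.69% in mitosis genes, while the CHR element reaches 17.8% and 76.9%.

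The sort was checked against markers of the cell types a thymus holds. All 13 measured markers of CD4 single-positive T cells were above background on every array, with summed signals of 78870 to 81326 on LM and 77054 to 80532 on KO. Both KO arrays lay below LM for 4 of them (30.8%, against 18.3% of all genes) and above for 5 (38.5%, against 19.1%). Their differences ran from -0.32 to 0.29, and limma called 0, against 0.275% of all genes. Markers of immature thymocytes summed to 12450 and 12746 on LM and 13861 and 13970 on KO: 11 of the 14 measured were above background on every array, Ptcra and Kit on none, and 11 of the 12 tested had differences above 0. Without Il2ra, which the regulatory T cell list also holds, the sums were 11848 and 12197 against 12895 and 13019. Themis (0.11 ± 0.13), Tcf12 (0.04 ± 0.12) and Dntt (-0.02 ± 0.16), the brightest of this list, weigh most in the sums, and each overlapped. Il2ra, Cd1d1 (0.29 ± 0.17), Cd8b1 (0.36 ± 0.23) and Rag2 (0.52 ± 0.39, LM 1 below background) lay above LM on both KO arrays (33.3%, against 19.1% of all genes). The rest overlapped, among them Rag1 (0.14 ± 0.39), Cd8a (0.07 ± 0.22) and Arpp21 (0.04 ± 0.39). Regulatory T cell markers summed to 13627 and 13814 against 18865 and 17252, with all 9 above background on every array and 8 of 9 differences above 0. Of these, 1 gene, Izumo1r, had risen at the threshold (0.58 ± 0.09, limma adjusted p = 0.0213). Izumo1r, the brightest of the list, read 12.29 and 12.26 on LM against 12.89 and 12.81 on KO and weighs most in the sums. Il2ra, which encodes the CD25 that the sort excluded, was above background on every array and read 9.27 and 9.14 on LM against 9.94 and 9.92 on KO (0.72 ± 0.19, limma adjusted p = 0.221). Nrp1 (1.01 ± 0.31) and Ikzf2 (0.49 ± 0.13) also lay above LM on both KO arrays, whereas Foxp3 (0.48 ± 0.34), the defining factor, overlapped. Gpr83 lay below LM on both KO arrays (-0.21 ± 0.17). Tnfrsf18 (0.21 ± 0.14), Ctla4 (0.13 ± 0.20) and Tnfrsf4 (0.04 ± 0.19) overlapped. Markers of NKT cells, of which Klrk1, Nkg7 and Tbx21 were above background on no array, summed to 1239 and 1296 against 1583 and 1420. Of the 3 tested, Il2rb, which is not restricted to these cells, lay above LM on both KO arrays (0.40 ± 0.18), the defining factor Zbtb16 lay below on both (-0.49 ± 0.36) and Cxcr6 overlapped (0.13 ± 0.35). Myeloid markers summed to 904 and 1109 against 895 and 995, with Cd68, Fcgr3 and Tyrobp of 9 above background on every array. Thymic epithelial markers summed to 1375 and 1048 against 738 and 1137, with Ly75 and Epcam of 6 above it on every array. B cell markers summed to 292 and 359 against 234 and 313 and erythroid markers to 230 and 203 against 121 and 293, and in these lists Cd79a and Alas2 reached 3 arrays. In each of these lists all tested genes overlapped between the groups. Cd22, Cd79b, Ms4a1 and Pax5 of B cells, Adgre1 and Itgax of myeloid cells, Hba-a1 and Klf1 of erythroid cells, and Foxn1, Krt5, Krt8 and Psmb11 of thymic epithelium were above background on no array. The part of any of these cells in the lower replication signal was not tested.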

How the data were processed

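Each probe set has 1 deposited intensity on each array, on a linear scale (0.1 to 43129), scaled to a trimmed mean of 500 on each array as the values show. The program that summarised the probes is not given in the sources used here. Per the labels' protocols, Trizol-extracted RNA went through WT-Ovation Pico amplification and biotin labelling.

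The intensities were taken as log2(signal + 16), which understates differences of dim genes, and quantile normalized. The 64 control probe sets, and probe sets with several symbols (932) or none (9160), were left out, and each gene took its brightest probe set. Background was set on each array by 80 probe sets of olfactory and vomeronasal receptors, at their 95th percentile (LM signals of 106 and 92, KO signals of 98 and 78); genes above it on at least 2 arrays were tested (11255). Genotype alone was fitted with limma 3.58.1 (R 4.3.3; lmFit and trended eBayes), two-sided, with 2 residual degrees of freedom and 9.96 borrowed, and was tested on simulated data. Correlations between arrays ran from 0.961 to 0.974. The median standard error was 0.22, and the number of arrays limits the precision. Motifs were searched with Python 3.11.15.

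The genes and lists were chosen with earlier results of these data known. Named in full were the 4 genes of smallest p in each role, genes called, and genes above 0 at an unadjusted p under 0.05; of each other gene list, those called and up to 4 of smallest p. E2f3, Ccnd2, Ccnd3, the cell markers given with values and the sums without Il2ra were chosen after their values were seen. Alternatives were other normalizations, pseudocounts, filters, moderation, probe set rules, the replicate number as a block and leaving out each array.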

Additional observations from a re-analysis of the deposited data

How the results depend on the processing

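The 54 replication genes kept a median below 0 in every alternative tried: it was -0.32 with median centring, which moved the median of all genes by -0.05, and from -0.32 to -0.24 with 1 array left out. In 14 alternatives by gene, 34 of the genes stayed below 0, Orc2 and Cdc45 stayed above, and 18 took both signs. With 1 array left out, 18 of the 54 genes took the other sign. Among the 4 of smallest p in each role these were Ccne1 (-0.33 to 0.072, above 0 without LM replicate 2), Gins2 (-0.44 to 0.061, without LM replicate 2), Chaf1b (-0.16 to 0.32, without LM replicate 1) and Prim2 (-0.88 to 0.067, without KO replicate 1). Prim2 also turned with probe sets averaged (0.28).

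The count of replication genes called lower, 0, became 1 (Rrm2) without normalization, with median centring, a pseudocount of 64, the filter on all 4 arrays, robust moderation or averaged probe sets, 2 with every probe set separately, and 0 to 1 with 1 array left out. With every probe set, 89 were below 0 and 1 of the wider replication genes was called higher. Over all genes, 15 higher and 16 lower became 25 higher without normalization, 38 and 43 with median centring, 26 higher with every probe set, and 16 to 56 and 24 to 41 with 1 array left out. Mitosis genes called lower, 8, became 16 with median centring, 4 with probe sets averaged and 8 to 11 with 1 array left out; their median was -0.69 with a pseudocount of 64 and -0.92 to -0.66 with 1 array left out. Without the filter on dim genes, and without the intensity trend, limma called 0 genes, replication and mitosis genes included, with 1247 and 922 genes at an unadjusted p under 0.05. The cause of these shifts was not tested. Without either LM array the fit pooled all genes' spread fully, and a lone array is assumed to vary like the other group.

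The replicate numbers are not shown to pair the samples: over genes, LM 1 minus LM 2 and KO 1 minus KO 2 correlated at -0.02. With the replicate number as a block, 1 replication gene was called lower (Rrm2, limma adjusted p = 0.0153), the median stayed at -0.27, and 43 genes were called in all.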

Other observations

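Of 25 replication-dependent histone genes, 5 had a single-symbol probe set and 4 were tested. H1f4, a linker histone, fell, with 11.98 and 11.77 in LM against 11.09 and 10.71 in KO (-0.98 ± 0.15, SE, n = 2 per group, limma adjusted p = 0.0213). H2ax, the variant phosphorylated at DNA breaks, gave -0.83 ± 0.19 (adjusted p = 0.145) and H1f2, another linker histone, -0.44 ± 0.20 (adjusted p = 0.586). H3c7, a core histone, was measured on the KO arrays alone (7.18 and 7.48). It lay below background on both LM arrays (6.83 and 5.19) and was tested only because of the KO values, so no fold or test is given. Most messages of this class lack a poly(A) tail, and how the amplification treated them is not given in the sources used here.

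Among 16 tested D cyclins, their kinases, CDK inhibitors and quiescence factors, a list that mixes promoters and inhibitors of cycling, 5 were below 0 (31.2%, against 49.7% of all genes). The median was 0.06, against 0.00 over all genes, and no spread was estimated for it. Limma called 0, with 2 lower and 1 higher at an unadjusted p under 0.05. Ccnd2, a D cyclin, read 13.59 and 13.59 on LM and 13.54 and 13.67 on KO (0.01 ± 0.07), and Ccnd3, another, gave -0.09 ± 0.14. Tob1, an antiproliferative factor, lay above LM on both KO arrays (0.75 ± 0.22, adjusted p = 0.295). Cdkn2c, a CDK4 and CDK6 inhibitor, lay below on both (-0.73 ± 0.22, adjusted p = 0.329), as did Klf2, a factor of quiescent T cells (-0.48 ± 0.16, adjusted p = 0.393).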
